A study of Homo sapiens with 6 samples.

Results

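The genes described here are 9 human genes whose products sense double-stranded RNA or act on it: IFIH1, DHX58, TLR3, MAVS, EIF2AK2, OAS1, OAS2, OAS3 and ADAR. They were taken by name, and each had 1 row among the 59653 gene symbols of the count table. They were measured by mRNA sequencing in PA1, an established human ovarian teratocarcinoma line labelled wildtype. The 3 control siRNA libraries came from cells transfected with a negative control small interfering RNA (siRNA), and the 3 SOX2 siRNA libraries from cells transfected with siRNA against the pluripotency factor SOX2. The labels name 2 siRNAs against SOX2 without saying if these were mixed. After 24 h the cells of both groups were moved to poly-HEMA-coated plates, which prevent attachment, and RNA was taken after a further 72 h. Both groups therefore received siRNA, itself a short double-stranded RNA, and no untransfected library was analysed, so the values compare SOX2 siRNA with control siRNA and say nothing about the effect of transfection.

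Long double-stranded RNA is rare in uninfected cells and is read as a sign of viral replication. In the cytosol it is bound by the RIG-I-like helicases, which signal through MAVS on mitochondria, and in endosomes by TLR3; both routes activate interferon genes. Interferon in turn raises transcription of the sensors themselves and of effector enzymes: EIF2AK2 (PKR), which phosphorylates the translation factor eIF2, and the OAS enzymes, whose oligoadenylate product activates RNase L. ADAR deaminates adenosines in double-stranded RNA and so keeps cellular transcripts from being sensed. Pluripotent and embryonal carcinoma cells are known for a weak interferon response.

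Of the 9 genes, 4 were lower after SOX2 siRNA: the sensors IFIH1 and TLR3, the kinase gene EIF2AK2 and the synthetase gene OAS3. None of the 9 was called higher by edgeR's quasi-likelihood test; 0 were higher at an unadjusted p under 0.05, and 0 by DESeq2 or limma-voom. MAVS, ADAR, DHX58 and OAS2 were tested and not called, and OAS1 had too few counts to be tested. A gene was called at a Benjamini-Hochberg adjusted p under 0.05 over all 17592 tested genes. By that rule 28.2% of all tested genes were called, made up of 13.4% called lower and 14.8% called higher, so 4 lower of 8 tested is read against 13.4%. Each of the 8 tested genes had a log2 fold change below 0, as had 50.2% of all tested genes; their median was -0.42, against -0.000851 over all tested genes. The genes were chosen with earlier results of these data known, so these comparisons are a description and not a test. Each of the 8 also had at least 10 counts in every library, so none entered the test through 1 group alone.

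The sequence around the transcription start is shown for the 4 genes that were called; whether they share a control was not tested. The windows run from 160 bases before to 20 bases after the start annotated by RefSeq (GRCh38.p14), 5′ to 3′ on the gene's strand. Capitals mark matches, on either strand, to a 10-letter pattern, GAAA followed by any 2 bases and then GAAA. This is the core of the interferon-stimulated response element bound by the interferon-activated factor ISGF3 and by IRF proteins. The windows lie at chr2:162318665-162318844 (minus strand) for IFIH1, chr4:186068996-186069175 (plus strand) for TLR3, chr2:37156961-37157140 (minus strand) for EIF2AK2 and chr12:112938314-112938493 (plus strand) for OAS3.
IFIH1: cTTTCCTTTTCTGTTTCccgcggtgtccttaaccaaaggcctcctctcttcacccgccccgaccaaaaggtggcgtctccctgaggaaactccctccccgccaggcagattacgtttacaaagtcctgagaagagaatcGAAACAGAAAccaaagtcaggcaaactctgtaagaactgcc
TLR3: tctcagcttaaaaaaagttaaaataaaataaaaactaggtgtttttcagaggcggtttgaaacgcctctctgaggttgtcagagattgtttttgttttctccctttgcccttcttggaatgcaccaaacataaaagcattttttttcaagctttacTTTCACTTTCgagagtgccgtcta
EIF2AK2: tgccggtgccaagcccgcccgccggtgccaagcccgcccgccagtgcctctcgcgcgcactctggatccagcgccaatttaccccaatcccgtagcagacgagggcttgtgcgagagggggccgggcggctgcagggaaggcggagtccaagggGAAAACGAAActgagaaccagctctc
OAS3: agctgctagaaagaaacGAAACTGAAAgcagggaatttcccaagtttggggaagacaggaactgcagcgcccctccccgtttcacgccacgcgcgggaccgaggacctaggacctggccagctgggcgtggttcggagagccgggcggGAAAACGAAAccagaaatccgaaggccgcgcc

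In EIF2AK2 the match begins 6 bases before the start, and in TLR3, where it is on the opposite strand, 4 bases before it. OAS3 has matches beginning 143 and 12 bases before the start, the nearer one with the same letters as that of EIF2AK2, GAAAACGAAA. IFIH1 has 3 matches, of which the distal pair, at 159 and 153 bases, overlap each other on the opposite strand and the third begins 21 bases before the start. Over the full windows of the table (300 bases each), 7 of the 9 genes had an entry and 4 of the 7 had a match. These 4 are the genes printed above; whether a match goes with a fall was not tested. MAVS, OAS1 and the 3 ADAR windows had no match to these letters, and DHX58 and OAS2 had no entry. The OAS1 window does hold GAAACGAAA before the start, with 1 base between the GAAA repeats, a spacing that the pattern does not count. No match in OAS1 therefore does not show that it lacks such an element, and the same holds for MAVS and ADAR. Of the tested genes that were not called, only MAVS and ADAR had an entry. Over the table as a whole, 4.38% of 27305 gene symbols had a match in at least 1 window. The letters CATTGT, a core recognised by SOX proteins, were found on either strand in the windows of 0 of the 7 genes and of 13% of all gene symbols. With so few genes this difference was not tested, and sequence outside these windows was not searched. A match is a string of letters and not a measured binding site, and no binding was measured here.

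The libraries held 25152313 to 32753184 counts each, and values are given as counts and as CPM, which is counts relative to the TMM-scaled library size. At these depths 3 counts, taken as the smallest amount told from none, equal 0.0909 to 0.120 CPM. The targeted gene SOX2 went from 255 ± 10.1 CPM under control siRNA to 52.5 ± 2.21 CPM under SOX2 siRNA (SD over n = 3), leaving 20.5% of its control level. Of 9 markers of the line 8 were tested, and 4 were called higher, 1 lower and 3 not called. LIN28A went from 706 ± 3.61 to 1150 ± 10.4 CPM, LIN28B from 239 ± 10.9 to 359 ± 12.7, DNMT3B from 99.7 ± 4.27 to 132 ± 2.41 and POU5F1 from 301 ± 18.6 to 339 ± 13, while PODXL went from 1320 ± 15 to 671 ± 25.1 CPM (SD, n = 3). SALL4 was not called, at 151 ± 4.6 and 144 ± 1.99 CPM; DPPA4 and L1TD1 were low, at 3.05 ± 0.0272 and 1.79 ± 0.921 CPM in control libraries (SD, n = 3), and TDGF1 had at most 3 counts in a library. Of 12 leukocyte markers, MS4A1 had no count and PTPRC at most 3 counts in a library, CD14 was called higher at 8 to 21 counts, and the summed level of the list was 3.94 to 16.5 CPM in control and 3.40 to 19.7 CPM in SOX2 siRNA libraries. LYZ was the largest single part in each of the 6 libraries, and in the SOX2 siRNA library at 3.40 CPM it was at 1.48 CPM. LYZ ranged from 48 to 542 counts with both extremes in the SOX2 siRNA group. Whether these marker transcripts have a part in the results below was not tested. The labels do not say whether the numbered libraries came from separate cultures, so the p-values measure the spread between these samples, which may be technical.

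**Figure D1:**
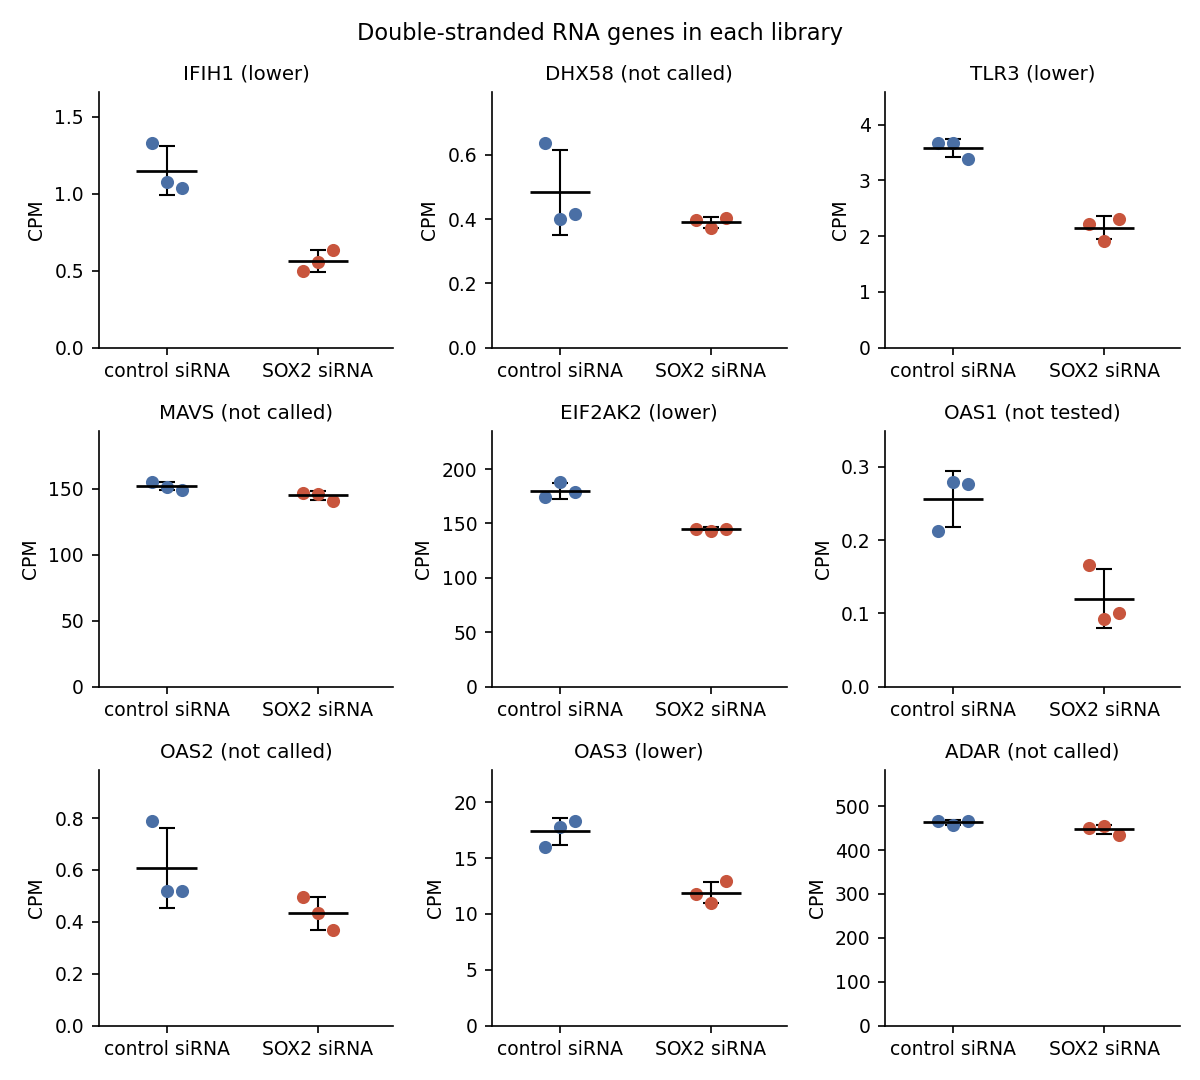
CPM of each gene (y axis, from 0, a separate scale per panel) in the 3 control siRNA and 3 SOX2 siRNA libraries; points are libraries, horizontal lines are means and bars are SD. Among the 8 tested genes the groups are apart in 7, against 41.8% of all tested genes, and in DHX58 they overlap. They are also apart in OAS1, which was not tested.

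Among the cytosolic sensors, IFIH1 fell by more than any other tested gene of the 9. IFIH1 encodes MDA5, the helicase that binds long double-stranded RNA (ENSG00000115267.6; chr2:162267079-162318703 on the minus strand in GENCODE 29, GRCh38). Its counts were 44, 27 and 30 under control siRNA against 15, 18 and 19 under SOX2 siRNA (each in replicate order), or 1.33, 1.08 and 1.04 CPM against 0.497, 0.557 and 0.636 CPM. Every SOX2 siRNA library was below every control library. The mean went from 1.15 ± 0.160 to 0.563 ± 0.0698 CPM (SD with n = 3), 49.0% of control, with a log2 fold change of -1.03 (SE 0.26, 95% interval -1.58 to -0.48; edgeR adjusted p = 0.00604). Of all tested genes, 1.80% had a lower log2 fold change. The counts are low: of tested genes with a mean under 1 CPM, 5.62% were called lower. The highest adjusted p over the alternatives was 0.0478, by DESeq2's Wald test; without control replicate 1, the library with most IFIH1 counts, the value was -0.90 (edgeR adjusted p = 0.0404).

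DHX58 encodes LGP2, a helicase of the same family that lacks the signalling domain and modulates MDA5 and RIG-I (ENSG00000108771.12; chr17:42101404-42112733, minus strand). It had 21, 10 and 12 counts in the control libraries and 12 in each SOX2 siRNA library. The groups overlapped, at 0.636, 0.399 and 0.415 CPM against 0.398, 0.371 and 0.402 CPM. The log2 fold change was -0.33 with a 95% interval from -1.03 to 0.38 (edgeR adjusted p = 0.522), so at this depth neither a fall as large as that of IFIH1 nor no change lay outside the interval. Control replicate 1 set most of the difference, since without it the log2 difference was -0.063 (edgeR adjusted p = 0.933).

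The endosomal sensor TLR3 is a transmembrane receptor that signals through the adaptor TICAM1 (ENSG00000164342.12; chr4:186069152-186088069, plus strand). It had 121, 92 and 98 counts in control and 67, 62 and 69 counts in SOX2 siRNA libraries. In CPM these were 3.67, 3.67 and 3.39 against 2.22, 1.92 and 2.31, with no overlap. The mean went from 3.58 ± 0.161 to 2.15 ± 0.205 CPM (SD with n = 3), 60.1% of control, with a log2 fold change of -0.74 (SE 0.15; edgeR adjusted p = 0.00120). Of tested genes with a mean of 1 to 10 CPM, 12.4% were called lower. The call was kept in each of the 15 alternatives, with log2 fold changes from -0.79 to -0.66.

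MAVS, the adaptor on the outer mitochondrial membrane below RIG-I and MDA5 (ENSG00000088888.17; chr20:3846799-3876123, plus strand), was close to level. It had 155, 151 and 149 CPM in control and 147, 146 and 141 CPM in SOX2 siRNA libraries, from 3778 to 5120 counts a library. Every SOX2 siRNA library was below every control library, by a small margin. The log2 fold change was -0.068 (SE 0.036, 95% interval -0.15 to 0.0089; edgeR adjusted p = 0.186), which leaves a fall beyond 0.15 on the log2 scale outside the interval.

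Of the effectors, the kinase gene EIF2AK2 had the smallest p of the 9 genes with a modest change (ENSG00000055332.17; chr2:37099210-37157065, minus strand). It had 5731, 4717 and 5166 counts in control and 4385, 4620 and 4345 counts in SOX2 siRNA libraries. In CPM the control libraries were at 174, 188 and 179 and the SOX2 siRNA libraries at 145, 143 and 145. The groups did not overlap. The mean went from 180 ± 7.43 to 145 ± 1.43 CPM (SD with n = 3), 80.2% of control (log2 fold change -0.32, SE 0.038; edgeR adjusted p = 5.63e-06). Of tested genes at 100 CPM or more, 17.9% were called lower. Exons of EIF2AK2 overlap those of the opposite-strand gene GPATCH11 over 35 bases (0.325% of its exon length) and those of an opposite-strand pseudogene over 3.73%; the use of strand in counting is not given in the sources used here.

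The 3 synthetase genes stand side by side on the plus strand of chromosome 12, in the order OAS1 (ENSG00000089127.12; chr12:112906777-112933222), OAS3 (ENSG00000111331.12; chr12:112938352-112973249) and OAS2 (ENSG00000111335.12; chr12:112978395-113011723). OAS3, which encodes the largest of the 3 enzymes, had 528, 446 and 528 counts in control and 356, 357 and 384 counts in SOX2 siRNA libraries. That was 16.0, 17.8 and 18.3 CPM against 11.8, 11.0 and 12.9 CPM, with no overlap. The mean went from 17.4 ± 1.20 to 11.9 ± 0.911 CPM (SD with n = 3), 68.5% of control (log2 fold change -0.54, SE 0.078; edgeR adjusted p = 4.24e-05). Of tested genes with a mean of 10 to 100 CPM, 15.6% were called lower.

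OAS2 had 26, 13 and 15 counts in control and 15, 14 and 11 counts in SOX2 siRNA libraries, or 0.788, 0.519 and 0.519 CPM against 0.497, 0.433 and 0.368 CPM. The groups did not overlap, by a narrow margin, and the difference did not pass the test (log2 fold change -0.50, 95% interval -1.17 to 0.17; edgeR adjusted p = 0.269). The interval includes both the value of OAS3 and 0; without control replicate 1 the fitted log2 change was -0.26 (edgeR adjusted p = 0.673). OAS1 was near the floor, with 7, 7 and 8 counts in control and 5, 3 and 3 counts in SOX2 siRNA libraries. Its summed counts, 22 against 11, give 46.9% of control with an exact 95% interval of 20.5% to 101% that covers counting error only. In a fit with no low-count filter its log2 fold change was -1.06 (edgeR adjusted p = 0.301). A change of OAS1 or OAS2 was therefore not detected, which does not show that they differ from OAS3.

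ADAR, the editing enzyme gene (ENSG00000160710.16; chr1:154582057-154628013, minus strand), had the most counts of the 9, from 11454 to 15373 a library. It was at 466, 457 and 466 CPM in control and 451, 455 and 435 CPM in SOX2 siRNA libraries, so that every SOX2 siRNA library was below every control library. The mean went from 463 ± 5.14 to 447 ± 10.9 CPM (SD with n = 3), 96.5% of control, and did not pass the test (log2 fold change -0.051, SE 0.033, 95% interval -0.12 to 0.019; edgeR adjusted p = 0.285). The gene makes a constitutive nuclear and an interferon-inducible cytoplasmic protein from different starts, and a count per gene does not separate them. Editing itself was not measured.

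**Figure D2:**
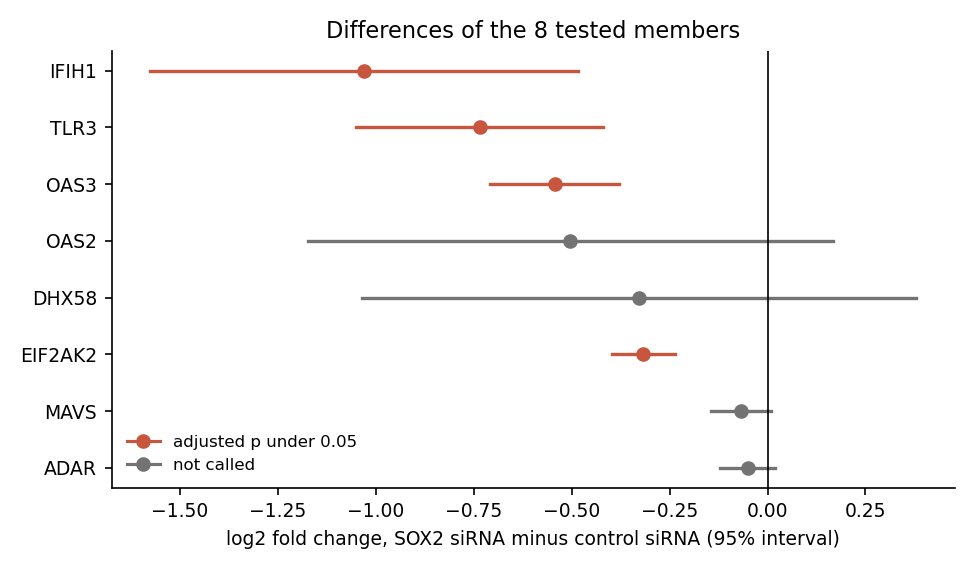
Log2 fold change of SOX2 siRNA against control siRNA (x axis) for the 8 tested genes, with 95% intervals from edgeR's fit; red marks adjusted p under 0.05. The intervals of IFIH1, TLR3, OAS3 and EIF2AK2 lie below 0, and those of OAS2 and DHX58 are wide.

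No overlap between groups was found in 7 of the 8 tested genes, DHX58 being the exception, and in 41.8% of all tested genes. With 3 against 3 libraries an exact two-sided permutation test cannot go below p = 0.1, the value that each of these 7 genes and OAS1 reached. The 4 called genes differed in the size of their fall, from 80.2% of control left for EIF2AK2 to 49.0% for IFIH1, and differences between genes were not tested. Fewer cells making a transcript and less of it per cell cannot be told apart in these bulk libraries. No alternative ended one of these 4 calls.

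**Figure D3:**
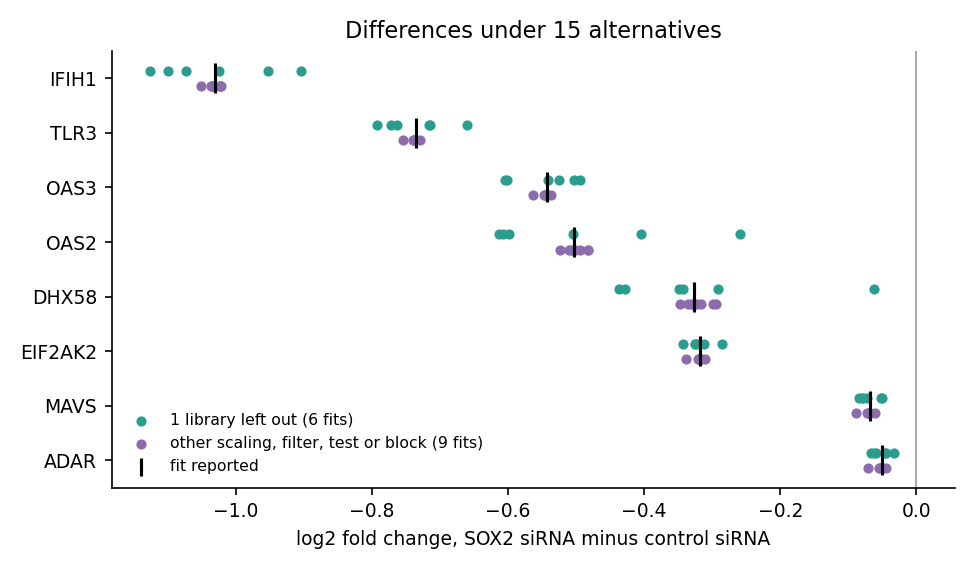
Log2 fold change of each tested gene (x axis) in the fit reported (black bar), in 6 fits that each left out 1 library (green) and in 9 fits with another scaling, filter, test or replicate block (purple). IFIH1, TLR3, OAS3 and EIF2AK2 stay within -1.13 to -0.29, and DHX58 and OAS2 come nearest to 0 without control replicate 1, at -0.063 and -0.26.

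Levels were set side by side per kb of exon, using the summed exon length of each gene in GENCODE 29, which may differ from the transcripts these cells make. In control libraries the order in CPM per kb was ADAR at 47.8 ± 0.530, EIF2AK2 at 16.8 ± 0.691, MAVS at 12.9 ± 0.258, OAS3 at 2.10 ± 0.145, TLR3 at 0.532 ± 0.0240, IFIH1 at 0.225 ± 0.0314, DHX58 at 0.126 ± 0.0345, OAS2 at 0.0971 ± 0.0248 and OAS1 at 0.0518 ± 0.00770 (SD, n = 3). The editor, the kinase and the adaptor thus stood well above TLR3, IFIH1 and DHX58. Only DHX58 and OAS2 were neighbours whose control libraries overlapped. In SOX2 siRNA libraries the order of the means was the same, with EIF2AK2 at 13.4 ± 0.133 and MAVS at 12.3 ± 0.290 CPM per kb (SD, n = 3). There IFIH1, at 0.110 ± 0.0137, overlapped DHX58, at 0.102 ± 0.00431 CPM per kb. Lengths of the longest annotated transcript gave the same order in control libraries.

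**Figure D4:**
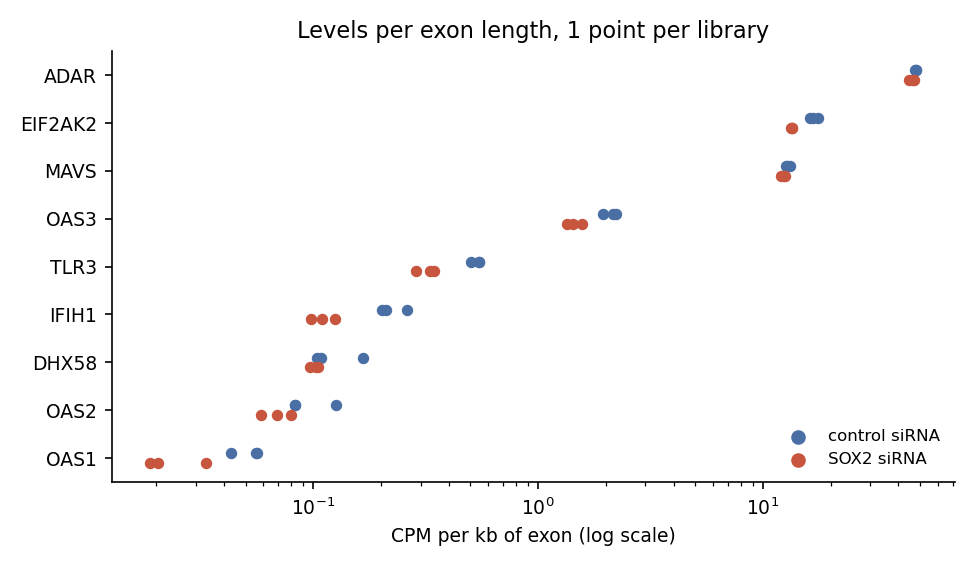
CPM per kb of exon (x axis, log scale) for each of the 9 genes in each library, control siRNA in blue above SOX2 siRNA in red. ADAR, EIF2AK2 and MAVS lie above 10 and the sensors TLR3, IFIH1 and DHX58 below 1.

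The genes around these 9 were counted in 9 pathway lists, which together held 120 genes found in the table, 103 of them tested. Of these, 27 were called (26.2%, near the 28.2% over all tested genes), 17 lower and 10 higher, and their median log2 fold change was 0.032. Calls in both directions were found among partners of the RIG-I-like receptors, of which 4 were lower, 2 higher and 6 not called. DDX60, a helicase that assists RIG-I, fell from 38.0 ± 2.44 to 27.3 ± 1.58 CPM (SD with n = 3; log2 fold change -0.48; edgeR adjusted p = 1.00e-05), and TRIM25, the ubiquitin ligase of the RIG-I pathway, from 57.9 ± 2.58 to 42.9 ± 1.84 CPM (edgeR adjusted p = 3.08e-06). ZCCHC3, an RNA-binding co-receptor of RIG-I and MDA5, rose from 79.1 ± 2.25 to 102 ± 2.06 CPM (edgeR adjusted p = 1.49e-06). RIG-I itself, listed as DDX58 and chosen after its values were seen, had 723, 561 and 676 counts in control and 540, 575 and 566 counts in SOX2 siRNA libraries. It fell from 22.6 ± 0.753 to 18.2 ± 0.643 CPM (SD with n = 3; log2 fold change -0.31; edgeR adjusted p = 8.17e-04), a value close to that of EIF2AK2.

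Of 25 genes that carry the signal below MAVS and TLR3, 5 were lower, 1 was higher and 19 were not called, with a median of 0.045. TRAF5 fell from 81.3 ± 0.328 to 56.1 ± 5.86 CPM (SD with n = 3; log2 fold change -0.53; edgeR adjusted p = 1.96e-05). TRAF6, an adaptor ligase shared by both routes, and IKBKB, a kinase that activates NF-kappaB, had log2 fold changes of -0.26 and -0.22 (edgeR adjusted p = 0.00125 and 0.00182). Of the other endosomal receptors and their helpers 2 of 6 tested genes were called, both higher: MYD88, the adaptor of TLR7 to TLR9, at 0.30 and the chaperone CNPY3 at 0.17 (edgeR adjusted p = 0.00213 and 0.0178). The call of CNPY3 was lost by DESeq2 (adjusted p = 0.0552), without control replicate 2 (edgeR adjusted p = 0.0740) and without SOX2 siRNA replicate 2 (0.135).

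Downstream of the OAS enzymes, none of the 4 tested genes of the RNase L branch was called by edgeR, DESeq2 or limma-voom, and 1 had an unadjusted edgeR p under 0.05. ABCE1, which binds and inhibits RNase L, was at 245 ± 12.7 and 246 ± 11.4 CPM and PDE12, which degrades the oligoadenylates, at 44.1 ± 0.824 and 47.6 ± 2.23 CPM (SD, n = 3). ABCE1 was also slightly below 0 with upper-quartile scaling (log2 fold change -0.0091), and PDE12 was called higher without SOX2 siRNA replicate 1 (0.15; edgeR adjusted p = 0.0328). In the PKR branch 1 of 13 genes was lower, 2 were higher and 10 were not called. EIF2S3, a subunit of the eIF2 complex that PKR phosphorylates, fell from 575 ± 7.81 to 481 ± 3.26 CPM and DNAJC3, an inhibitor of PKR, rose from 84.3 ± 1.66 to 106 ± 3.67 CPM (SD with n = 3; edgeR adjusted p = 7.66e-06 and 5.88e-06). ATF4, translated when eIF2 is phosphorylated, had a log2 fold change of 0.12 (edgeR adjusted p = 0.0228). Its call was lost without control replicate 2 or 3 or SOX2 siRNA replicate 2 or 3, with log2 fold changes of 0.10 to 0.14 and edgeR adjusted p from 0.0543 to 0.119.

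Of 19 other tested genes that bind or process double-stranded RNA, 16 were not called. DICER1, the nuclease that cuts microRNA precursors, was at 0.19 (edgeR adjusted p = 0.00137). The editing enzyme gene ADARB1 was at -0.19 and SON at 0.090 (edgeR adjusted p = 0.0370 and 0.0457). Each of these last calls was lost in 5 of the 6 fits that left out 1 library. For ADARB1 it was kept without SOX2 siRNA replicate 1 and otherwise had adjusted p from 0.0571 to 0.164 at -0.21 to -0.15. The ADARB1 call was also lost by DESeq2 (adjusted p = 0.0951), by limma-voom (0.0545) and in edgeR with robust=FALSE (0.0512). For SON it was kept without control replicate 2 and otherwise had adjusted p from 0.0626 to 0.159 at 0.081 to 0.091. The SON call was also lost in edgeR with DESeq2 size factors (adjusted p = 0.0544), upper-quartile scaling (0.0946) and no low-count filter (0.062).

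Of the 6 interferon genes in the list of interferons and early IRF3 targets, which holds no IFNA gene, only IFNE was tested. It had 12, 19 and 5 counts in control and 15, 4 and 4 counts in SOX2 siRNA libraries, with overlapping groups, and was not called (log2 fold change -0.74, 95% interval -2.17 to 0.68; edgeR adjusted p = 0.448). IFNB1, IFNL1, IFNL2, IFNL3, IFNK and the chemokine genes CCL5 and CXCL10 had 0 counts in all 6 libraries, which allows up to 0.0909 to 0.120 CPM a library; they and IFNE were named after their values were seen. RSAD2 had 1 count in 1 library. Of the 7 tested genes of this list 3 were lower and 4 not called, where 13.4% of all tested genes were called lower. The median was -0.37, which is the value of IFIT1. Besides IFNE, the genes not called were IFIT3 at -0.00802, IFIT5 at 0.094 and ISG15 at 0.1 on the log2 scale (edgeR adjusted p = 0.976, 0.271 and 0.546). IFIT1, which binds foreign RNA ends, fell from 19.5 ± 0.409 to 15.1 ± 0.659 CPM (SD with n = 3; log2 fold change -0.37; edgeR adjusted p = 2.63e-04) and the stress factor gene ATF3 from 8.63 ± 0.804 to 5.48 ± 0.808 CPM (-0.66; edgeR adjusted p = 2.97e-04). IFIT2 was at -0.54 (edgeR adjusted p = 0.0445). The IFIT2 call was kept without control replicate 2 and lost in the other 5 fits that left out 1 library (edgeR adjusted p 0.0758 to 0.176, log2 fold change -0.58 to -0.43). The IFIT2 call was also lost by DESeq2 (adjusted p = 0.148) and limma-voom (0.0614). In edgeR it was lost with the replicate block (adjusted p = 0.0618), no low-count filter (0.0562) and robust=FALSE (0.0613).

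Among interferon receptors and the factors they activate, 2 of 14 tested genes were lower, 1 was higher and 11 were not called. The receptor subunit gene IFNGR2 rose by 0.37 on the log2 scale (edgeR adjusted p = 6.58e-05). USP18, a brake on interferon receptor signalling, was at -0.45 (edgeR adjusted p = 0.0326). Its call was lost by DESeq2 (0.119) and without control replicate 2 or 3 or SOX2 siRNA replicate 1 or 2 (edgeR adjusted p = 0.0563 to 0.131, log2 fold change -0.51 to -0.37). Of 3 tested cytosolic DNA sensing genes, IFI16 was lower, from 129 ± 6.68 to 104 ± 0.526 CPM (SD with n = 3; edgeR adjusted p = 1.67e-05), and DDX41 was not called, at -0.038. DDX41 was at 0.0028 without SOX2 siRNA replicate 2 and at 0.030 without replicate 3 of that group, and was called lower, at -0.16, without replicate 1 (edgeR adjusted p = 0.0147).

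**Figure D5:**
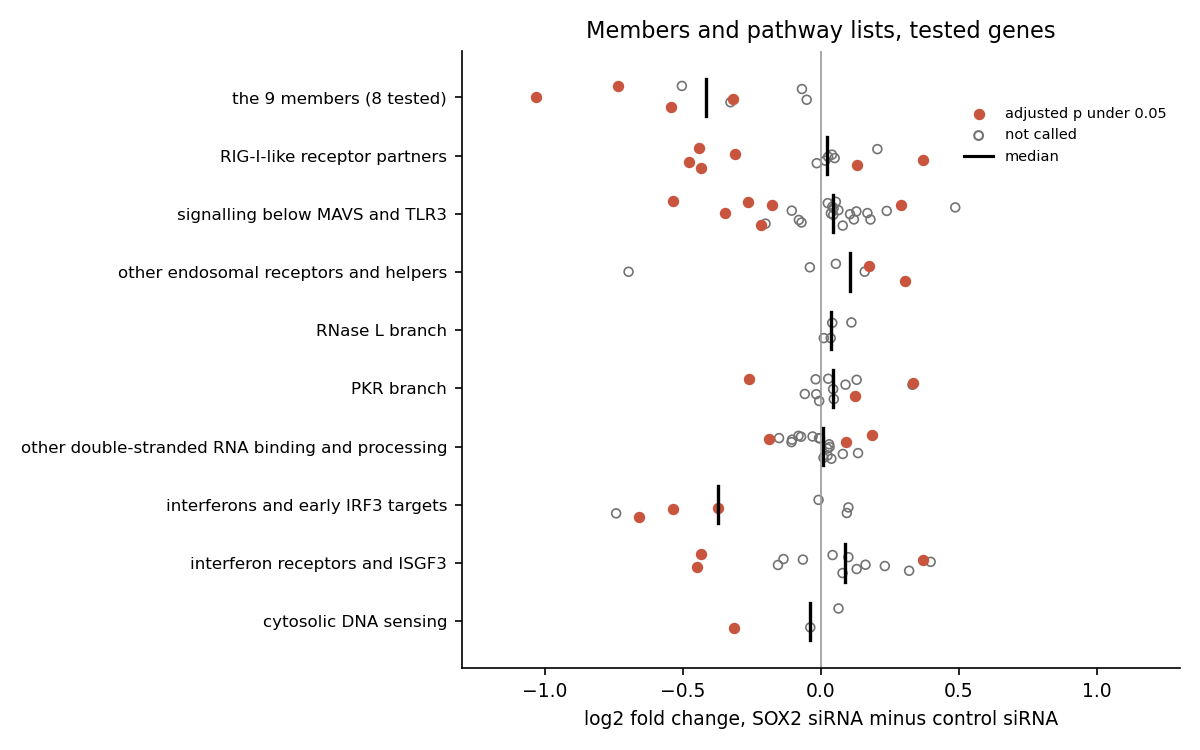
Log2 fold change (x axis) of each tested gene in the 9 double-stranded RNA genes and in the 9 pathway lists; filled points have adjusted p under 0.05 and black bars are medians. The medians are -0.42 for the double-stranded RNA genes and -0.37 for interferons and early IRF3 targets, while those of the other 8 lists lie between -0.038 and 0.11.

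The profile of EIF2AK2, the gene with the smallest p of the 9, was compared with those of 12116 other tested genes of average log2 CPM of at least 2, by the Euclidean distance between centred log2 CPM over the 6 libraries. GLCE, TMEM170A and ST7 were nearest, at distances of 0.0254, 0.0387 and 0.0456, where the median gene was at 0.453. GLCE went from 27.9 ± 1.23 to 22.2 ± 0.385 CPM, TMEM170A from 90.9 ± 5.02 to 73.6 ± 0.806 CPM and ST7 from 34.5 ± 1.04 to 27.1 ± 0.531 CPM (SD, n = 3).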

How the data were processed

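The deposited table holds raw counts per gene symbol in 6 columns, 1 per library, as whole numbers with unequal totals; columns were matched to libraries by the identifier in each library's description. Per the submitters' processing notes, bcl2fastq 2.20.0, STAR 2.7.3a, Salmon 0.14.1, DESeq2 1.28.1 and GRCh38.p13 were used; which program gave the counts, whether estimates were rounded, the annotation and the use of strand are not given in the sources used here. Trizol extraction and a KAPA mRNA HyperPrep kit were used, per the labels' protocols.

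The low-count filter was filterByExpr of edgeR at a minimum of 10 counts; the genes it passed held at least 99.89% of each library's counts. Counts were scaled by TMM and tested with edgeR 4.0.16's quasi-likelihood F-test on group (robust=TRUE), with Benjamini-Hochberg adjustment over 17592 genes and a threshold of 0.05. Each SE is the log2 fold change divided by the square root of F. R 4.3.3, limma 3.58.1, DESeq2 1.42.0, Python 3.11.15, pandas 2.3.3, scipy 1.17.1 and matplotlib 3.10.9 were also used. Intervals of log2 fold changes come from edgeR's fit and hold the spread between libraries; the interval on summed OAS1 counts and the floor of 3 counts cover counting error only, since reads amplified by PCR are not independent molecules. Replicates of a group differed beyond counting noise (chi-square per degree of freedom 2.87 to 6.43), and no library was left out.

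The 9 genes and the lists were chosen with earlier results of these data known. Named genes were the 9, SOX2, per pathway list up to 3 called genes of smallest p (with fewer than 3 called, the most abundant to make 2), and the 3 profiles nearest to the member with the smallest p (log2 of CPM plus 0.1). DDX58, IFNE, IFIT3, IFIT5, ISG15, markers and genes at 0 were named after their values were seen. A gene that the rule selects is not reported here. Coordinates and exon lengths are from GENCODE 29 on GRCh38, which matched all 9 symbols, and promoter windows from RefSeq. Alternatives were other scalings (DESeq2 size factors, upper quartile, total counts), filters (none; 10 counts in every library), tests (DESeq2, limma-voom, robust=FALSE), each library left out and the replicate number as a block.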

Additional observations from a re-analysis of the deposited data

How the results depend on the processing

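The 4 calls of IFIH1, TLR3, EIF2AK2 and OAS3 were kept in all 60 of their values under 15 alternatives, and SOX2 stayed between -2.32 and -2.26. MAVS, ADAR, DHX58 and OAS2 stayed uncalled and below 0. Over all genes, calls ranged from 3760 (without SOX2 siRNA replicate 2) to 5212 (no low-count filter). The share of calls that were higher after SOX2 siRNA was 52.4% with TMM and 45.8% with upper-quartile scaling. Same-numbered libraries did not deviate together (correlations 0.0868, -0.0377 and -0.0311 across genes), and not every library correlated best with its own number; with the replicate block 5177 genes were called, the 4 members among them. Calls in the pathway lists ranged from 20 to 30, against 27. Of 360 values for 24 single pathway genes, 38 lost a call, 2 gained one and 5 changed sign, none of them called: ABCE1 under upper-quartile scaling (-0.0091), without control siRNA replicate 1 (-0.029) and without SOX2 siRNA replicate 3 (-0.025), and DDX41 without SOX2 siRNA replicates 2 (0.0028) and 3 (0.030). Leaving out 1 library gave -0.029 to 0.045 for ABCE1 and -0.16 to 0.030 for DDX41. The cause was not tested. Depth limits OAS1, OAS2, DHX58 and IFIH1, which had 3 to 44 counts a library.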
